A study of Sus scrofa with 40 samples.

Results

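The nuclear genes for subunits of the mitochondrial respiratory chain and of ATP synthase were followed by RNA sequencing of oocytes of the pig (Sus scrofa) that had matured to metaphase II, where they rest until fertilised. Members were chosen by symbol: every row of both count tables that carries the name of a complex I subunit (NDUFA, NDUFB, NDUFC, NDUFS, NDUFV), a complex II subunit (SDH), a complex III subunit (UQCR, CYC1), cytochrome c (CYCS), a nuclear complex IV subunit (COX) or an ATP synthase subunit (ATP5, complex V). This took 65 of 38794 named rows. Of these, 37 belonged to complex I, 3 to complex II (SDHB, SDHC, SDHD), 2 to complex III (UQCR10, UQCRB), 1 was CYCS, 7 belonged to complex IV and 15 to complex V. The rule goes by name, so it also took NDUFA4, which is now counted as a subunit of complex IV, and ATP5S and ATP5SL, which are not structural subunits of ATP synthase. Subunits whose symbols matched no row are not among the members, and UQCRC1, CYC1, COX4I1 and COX5A are not analysed here.

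The study compared oocytes classed as deficient in mitochondrial DNA (mtDNA) with oocytes classed as normal, to determine how their transcriptomes differ. There were 5 deficient and 6 normal libraries of pooled oocytes, and 14 deficient and 15 normal libraries of single oocytes. All came from commercial hybrid pigs of Large White, Duroc and Berkshire descent, and the number of oocytes in a pool is not stated. Pools were extracted with the Arcturus Picopure kit and amplified with the Nugen Ovation chemistry, while single oocytes were lysed in the tube and made into libraries with the Nugen SoLo kit and pig InDA-C primers, which remove unwanted transcripts. The titles carry the words neg, pos and BCB, and the labels say no more on how each state was recognised. The labels do not say that the replicates of a group came from separate animals or cultures, so the p-values below reflect only how these samples vary, possibly for technical reasons. In pools, fewer contributing cells and less RNA per cell cannot be told apart.

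The respiratory chain passes electrons from NADH (through complex I) or succinate (through complex II) by way of ubiquinone, complex III and cytochrome c to oxygen at complex IV, and complexes I, III and IV pump protons across the inner mitochondrial membrane. ATP synthase, complex V, lets the protons flow back and makes ATP. Complexes I, III, IV and V are mosaics: a few core subunits are encoded in mtDNA and the others in the nucleus, while complex II is wholly nuclear. Oocytes carry very many copies of mtDNA, which are handed to the embryo, and rely on oxidative phosphorylation during maturation.

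Pools held 14480546 to 29538982 counts and single oocytes 706929 to 3067523. A row named LOC102158401 took 46.7% to 76.0% of the counts of a single oocyte, against at most 0.0275% of those of a pool. Members together held 7620 to 26341 counts in a pool and 348 to 1241 counts in a single oocyte. Of 15 oocyte markers, 12 or 13 reached a mean of 10 CPM (counts scaled to a common library total) in each of the 4 groups, and their summed level was 6635 to 13926 CPM in deficient pools, 6577 to 13163 CPM in normal pools, 2107 to 6910 CPM in deficient single oocytes and 2025 to 4995 CPM in normal single oocytes. Of 19 markers of cumulus and granulosa cells, which surround the oocyte, 2 reached 10 CPM in pools (INHBA and VCAN) and 1 in single oocytes (INHBA), while FOXL2, INHA and LHCGR were at 0 in every pool. The summed level of these markers was 68.4 to 200 CPM in deficient pools and 116 to 176 CPM in normal pools, and 20.1 to 65.2 CPM in deficient and 10.8 to 45.5 CPM in normal single oocytes. The part of these cells in the results was not tested.

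In pools, no member that was tested was called different between deficient and normal oocytes. The subunits encoded in mtDNA are not among the members. The 65 members summed to 457 to 958 CPM in deficient pools (median 617) and 587 to 945 CPM in normal pools (median 776), and these ranges overlapped. Of the 48 members that passed the expression filter of edgeR, its quasi-likelihood test with Benjamini-Hochberg adjustment called 0, as it called 0% of all 13540 genes tested, and the smallest adjusted p of a member was 0.921. At an unadjusted p under 0.05 there was 1 member, NDUFB6, against 5.36% of all genes. DESeq2 called 0 of 65 members and 59 of 23825 genes, with 4 members at an unadjusted p under 0.05 against 6.43% of all genes. In limma-voom 0 members were called and 0 had an unadjusted p under 0.05, against 5.47% of all genes. Of the 48 members, 19 lay higher and 29 lower in deficient pools, with a median log2 difference of -0.10, against -0.0019 over all genes. The median standard error of a member was 0.47 on the log2 scale, which bounds what these pools could resolve. The balance of the members also moved with 1 library and with measures of library quality. Without deficient pool B4, 27 members lay higher and 23 lower with a median of 0.01. With the number of genes detected or the share of the 18S ribosomal RNA gene RN18S as a covariate, 30 lay higher and 18 lower, with medians of 0.12 and 0.26. Other settings moved it the other way. Without deficient pool B2, 16 lay higher and 33 lower with a median of -0.19, and limma-voom gave a median of -0.19. RN18S took 0.177% to 0.441% of the counts of deficient pools and 0.175% to 1.30% of those of normal pools, and 14207 to 18456 genes were detected in deficient pools and 15057 to 19245 in normal pools.

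**Figure D1:**
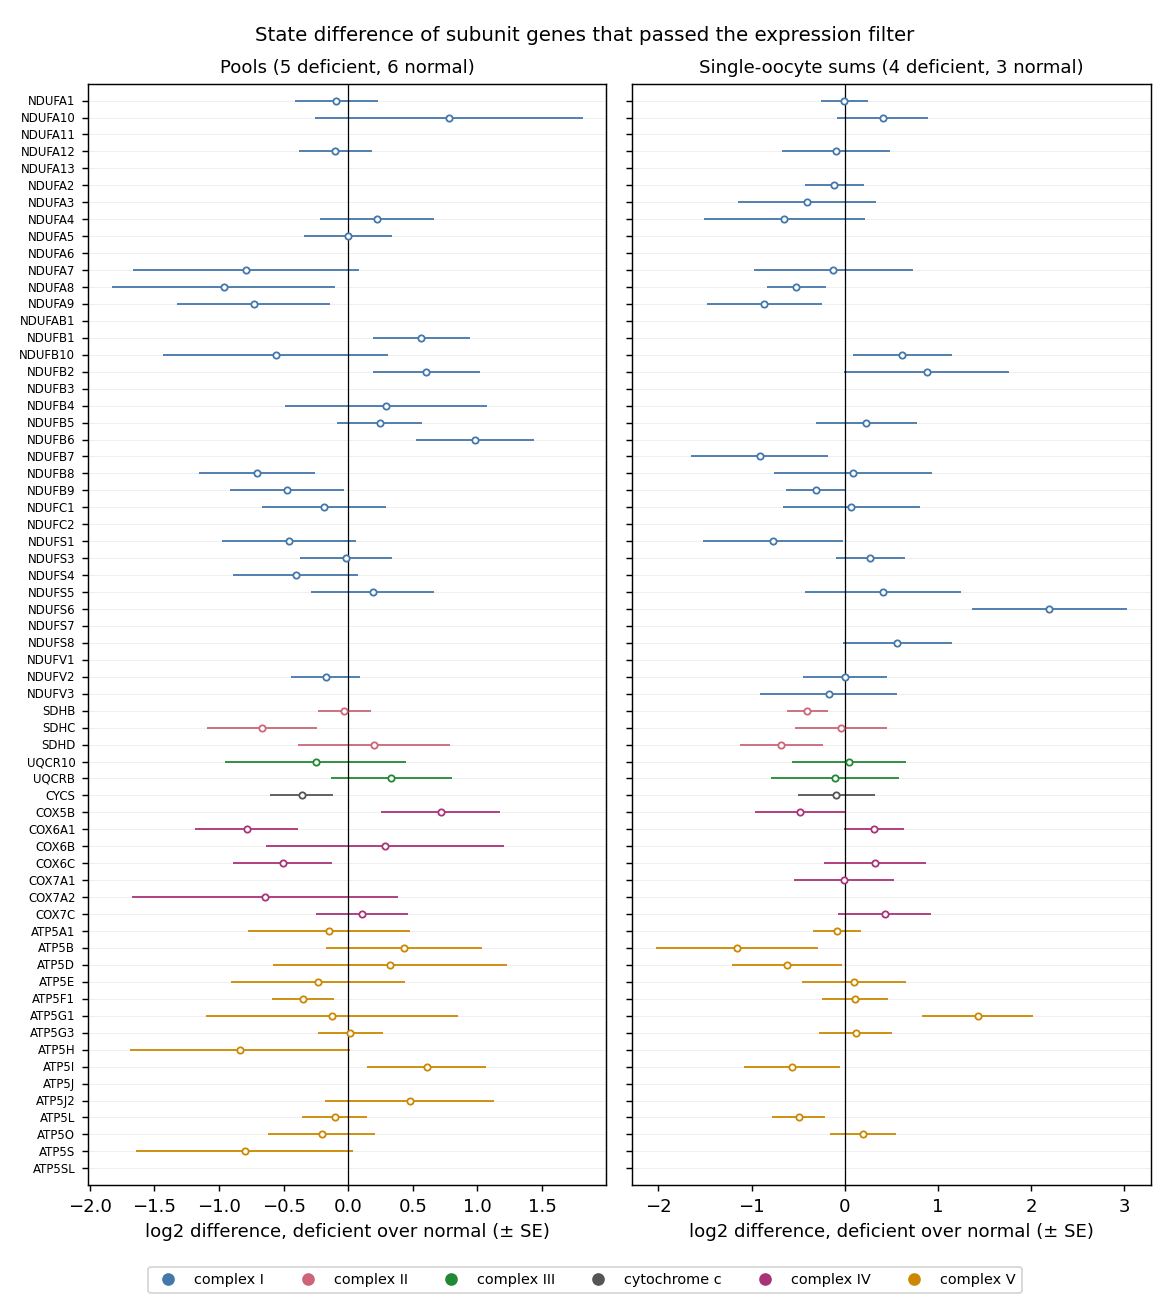
Log2 difference of deficient over normal (x axis, with bars of 1 standard error) for subunit genes that passed the expression filter, in pools (left) and in single-oocyte sums (right), coloured by complex. Of the 48 and 45 members tested, 1 is not shown. Genes with no point were not tested, and no gene of either panel passed the adjusted threshold of 0.05.

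Complex I, the NADH dehydrogenase through which most electrons enter the chain, had 23 of its 37 members tested in pools, 9 higher and 14 lower in deficient pools with a median of -0.09. NDUFB6, an accessory subunit of the membrane arm, had the smallest p of all members. It stood at 6.70, 6.01, 2.51, 5.43 and 11.8 CPM in deficient pools A1, A2, A3, B2 and B4, against 1.47 to 5.34 CPM (median 4.02) in normal pools. The ranges overlapped through deficient A3, and deficient B4 was highest of all 11. The log2 difference was 0.98 (SE 0.46, interval 0.09 to 1.88, adjusted p = 0.921), and the adjusted p ranged from 0.448 to 0.999 over the other settings tried. NDUFB8, another membrane-arm subunit that is often probed to follow complex I assembly, stood at 3.77, 2.83, 1.54, 2.81 and 4.27 CPM in the same deficient pools, against 2.11 to 9.63 CPM (median 6.34) in normal pools. All 5 deficient pools lay below the median of the normal ones, but normal A3 and B1 fell among them, and the log2 difference was -0.71 (SE 0.45, adjusted p = 0.921). NDUFB1, a small membrane-arm subunit, stood at 7.31, 14.02, 6.31, 7.89 and 4.58 CPM in deficient pools and 4.68 to 7.76 CPM (median 6.396) in normal pools. Its log2 difference of 0.57 (SE 0.37) was 0.12 without deficient A2.

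The catalytic subunits of complex I were no clearer. NDUFS1, the large iron-sulphur subunit of the peripheral arm, stood at 4.89, 0.552, 5.29, 10.16 and 7.39 CPM in deficient pools and 2.89 to 11.9999 CPM (median 9.80) in normal pools, a log2 difference of -0.46 (SE 0.52). NDUFV1, the flavin subunit that takes the electrons from NADH, was near the limit of detection, with a count in 1 of 5 deficient and 2 of 6 normal pools, and was not tested. NDUFAB1, the mitochondrial acyl carrier protein, was also below the filter, at 0.546 ± 0.471 CPM in deficient pools (SD, n = 5), against 0.196 ± 0.224 CPM in normal pools (SD, n = 6). NDUFA4 averaged 5.11 ± 1.78 CPM in deficient pools, against 4.97 ± 2.51 CPM in normal pools.

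Complex II, succinate dehydrogenase, is the complex with no mtDNA-encoded part. SDHB, its iron-sulphur subunit, was at 199, 189, 195, 276 and 127 CPM in deficient pools and 193 to 267 CPM (median 210) in normal pools. The states overlapped almost fully, and the log2 difference of -0.03 (SE 0.20) had the smallest standard error of the 48 members tested, with an interval of -0.43 to 0.37. SDHC, which anchors the complex in the membrane, stood at 17.3, 7.11, 7.90, 23.8 and 9.94 CPM in deficient pools, against 3.86 to 30.98 CPM (median 25.7) in normal pools. Its log2 difference was -0.67 (SE 0.43, adjusted p = 0.921), with normal B1 lowest of all 11 pools. SDHD, the second anchor, gave 0.20 (SE 0.59).

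Downstream of ubiquinone, UQCRB, a ubiquinone-binding subunit of complex III, had a log2 difference of 0.33 (SE 0.47) and UQCR10, a small complex III subunit, -0.25 (SE 0.70). CYCS, the mobile carrier between complexes III and IV, stood at 33.2, 11.7, 17.6, 34.9 and 21.1 CPM in deficient pools and 27.4 to 39.0 CPM (median 32.1) in normal pools. Deficient A2, A3 and B4 lay below every normal pool while deficient A1 and B2 lay among them, and the log2 difference was -0.36 (SE 0.24, adjusted p = 0.921). CYCS has processed pseudogenes in mammals, and how reads of near-identical copies were counted is not stated.

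In complex IV, cytochrome c oxidase, 6 of 7 members were tested in pools, 3 higher and 3 lower. COX6A1, the isoform of subunit VIa found in most tissues, stood at 7.73, 5.11, 9.13, 11.5 and 2.33 CPM in deficient pools, against 5.55 to 20.03 CPM (median 14.2) in normal pools. Normal B1 alone lay within the range of the deficient pools, and without it the states did not overlap. The log2 difference was -0.79 (SE 0.40, interval -1.57 to -0.00, adjusted p = 0.921). Its unadjusted p in edgeR was not under 0.05, so the interval is narrower than the test. COX5B, a zinc-binding subunit, pointed the other way, at 2.79, 5.80, 3.44, 4.96 and 2.20 CPM in deficient pools and 1.52 to 4.78 CPM (median 2.58) in normal pools, a log2 difference of 0.72 (SE 0.46). COX7A2, the isoform of subunit VIIa found in most tissues, gave -0.64 (SE 1.03), and its heart and muscle counterpart COX7A1 did not pass the filter.

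Of 15 complex V members, 13 were tested in pools, 5 higher and 8 lower. The catalytic head is built of ATP5A1 (subunit alpha), at 11.9 ± 9.57 CPM in deficient pools, against 14.6 ± 7.69 CPM in normal pools, and ATP5B (subunit beta), at 8.31 ± 4.97 and 6.86 ± 4.73 CPM in deficient and normal pools (SD, n = 5 and 6 for both genes). Their log2 differences were -0.15 (SE 0.63) and 0.43 (SE 0.60). ATP5G3, a gene for the c subunit of the proton-driven ring, gave 0.01 (SE 0.25), and ATP5G1, which encodes the same mature c subunit, gave -0.13 (SE 0.97). ATP5F1, the b subunit of the outer stalk, gave -0.35 (SE 0.24). Reads shared between the c subunit genes could have been split in the counting, so their separate levels are uncertain.

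Without any model, the CPM ranges of deficient and normal pools did not overlap for 0 of the 48 members, against 0.598% of all 13540 genes. Leaving out 1 pool brought 1 member into this count in 3 cases: NDUFB6 without deficient A3, COX6C (a small complex IV subunit) without normal A3, and COX6A1 without normal B1.

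**Figure D2:**
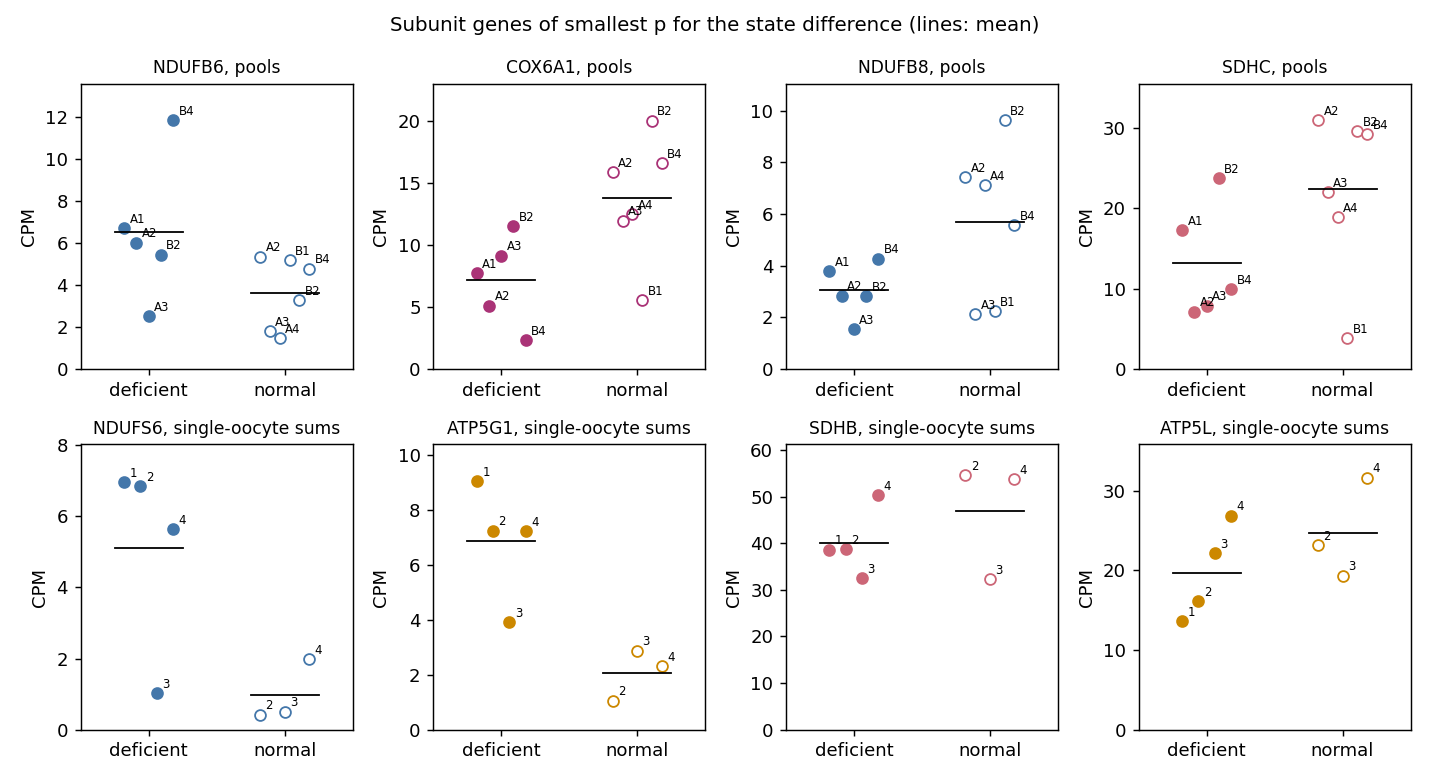
CPM (y axis, starting at 0) of the 4 members of smallest p for the state difference in pools (top) and in single-oocyte sums (bottom), with deficient libraries as filled and normal libraries as open points, each marked with its title label, and the mean as a line. In every panel of the top row, and in the lower panels of NDUFS6, SDHB and ATP5L, at least 1 deficient point lies within the normal range or the reverse. The 4 deficient sums of ATP5G1 lie at 3.91 CPM or more and the 3 normal sums at 2.88 CPM or less. All ATP5G1 counts of deficient sum 1 come from 1 of its 2 oocytes. How many of all genes separate in this way between sums was not counted.

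Single oocytes were compared as sums of counts over those that share a state and a first title number, whose meaning is not stated, giving 4 deficient sums (numbers 1, 2, 3 and 4, of 2, 2, 3 and 7 oocytes) and 3 normal sums (numbers 2, 3 and 4, of 4, 4 and 7 oocytes). No member was called for the state here either. Summed over all members the level was 405 to 616 CPM in deficient sums and 369 to 531 CPM in normal sums. Of 45 members tested, edgeR called 0, as it called 0% of 11964 genes, and 2 members had an unadjusted p under 0.05 against 1.93% of all genes. DESeq2 called 0 members, with 2 of 64 at an unadjusted p under 0.05 against 2.12% of all genes, and limma-voom 0, with 1 of 45 against 2.21%. With the title number as a block (a paired fit of 6 sums), 0 members were called and 0 had an unadjusted p under 0.05, against 3.18% of all genes, while 0 genes were called higher and 2 lower over the whole table. Of the 45 members, 21 lay higher and 24 lower, with a median of -0.0046, and the median standard error was 0.54. Oocyte libraries carry 1 of 2 dates. Those of numbers 1 and 3 are of 17 September, those of number 2 of 22 September, and those of number 4 of both. Number and date thus cannot be fully told apart. Within each date, with each oocyte as a sample, 0 of 17 members tested were called. Such fits take oocytes as replicates, although the labels do not show separate animals or cultures, so their p-values describe oocytes only. On each date 1 of the 17 had an unadjusted p under 0.05, against 5.95% of all genes on 17 September and 6.54% on 22 September.

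NDUFS6, a zinc-binding subunit near the NADH-oxidising tip of complex I that is added late in assembly, had the smallest p. It stood at 6.97, 6.85, 1.02 and 5.64 CPM in deficient sums 1, 2, 3 and 4, against 0.425, 0.501 and 1.98 CPM in normal sums 2, 3 and 4. The groups overlapped through deficient sum 3, while the deficient sum was higher in each of the 3 pairs that share a number. All 17 counts of deficient sum 2 came from 1 oocyte (S27), so that pair rests on 1 library. Of the 20 counts of deficient sum 1, 16 came from S16. With the number as a block the log2 difference was 1.88 (adjusted p = 0.999 in edgeR). Without the block the log2 difference was 2.19 (SE 0.83, interval 0.56 to 3.83, unadjusted p = 0.0176, adjusted p = 1.00). NDUFS6 was tested in 15 of the 20 alternatives, where the adjusted p ranged from 0.870 to 1.00. Its levels by oocyte and by date, given next, carry no test. By oocyte, NDUFS6 had a count in 12 of 14 deficient and 9 of 15 normal oocytes, with medians of 4.33 and 0.762 CPM and maxima of 16.9 and 5.51 CPM in deficient and normal oocytes. Among libraries dated 17 September the means were 4.45 ± 4.20 CPM in deficient oocytes (SD, n = 8), against 1.61 ± 1.80 CPM in normal oocytes (SD, n = 9), and among those of 22 September 6.54 ± 6.07 CPM in deficient oocytes, against 0.460 ± 0.526 CPM in normal oocytes (SD, n = 6 each).

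ATP5G1, a gene for the c subunit of ATP synthase, stood at 9.06, 7.26, 3.91 and 7.23 CPM in deficient sums. Normal sums stood at 1.06, 2.88 and 2.31 CPM, so the ranges did not overlap. All 26 counts of deficient sum 1 came from 1 oocyte (S16), and 15 of the 18 of deficient sum 2 from S27. In deficient sums 3 and 4 every oocyte had a count. How many of all genes separate in this way between so few sums was not counted, so no background stands beside it. The log2 difference was 1.43 (SE 0.60, interval 0.26 to 2.59, unadjusted p = 0.0286, adjusted p = 1.00). By date, the means were 6.31 ± 5.98 CPM in deficient oocytes, against 2.53 ± 2.86 CPM in normal oocytes of 17 September (SD, n = 8 and 9), and 8.08 ± 5.66 CPM in deficient oocytes, against 2.35 ± 2.41 CPM in normal oocytes of 22 September (SD, n = 6 each). In pools, ATP5G1 averaged 0.808 ± 0.885 CPM in deficient pools, against 1.01 ± 1.17 CPM in normal pools, and NDUFS6 was listed with counts in 1 of 5 deficient and 5 of 6 normal pools, at up to 0.0882 and 0.405 CPM.

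The next 4 members by p all lay lower in deficient sums, and for each of them the deficient and normal sums overlapped. SDHB stood at 38.7, 38.7, 32.5 and 50.3 CPM in deficient sums and 54.6, 32.3 and 53.8 CPM in normal sums, a log2 difference of -0.40 (SE 0.22). ATP5L, subunit g of the membrane part of ATP synthase, gave -0.50 (SE 0.29), and SDHD gave -0.68 (SE 0.44). NDUFA8, an intermembrane-space subunit of complex I, stood at 32.7, 8.87, 28.2 and 32.2 CPM in deficient sums and 39.1, 26.7 and 27.7 CPM in normal sums, a difference of -0.52 (SE 0.32), which was -0.30 without deficient sum 2. The mean CPM of NDUFA8 did not go the same way on the 2 dates. On 17 September it was 32.1 ± 7.97 CPM in deficient oocytes, against 25.3 ± 7.27 CPM in normal oocytes. The edgeR fit of those oocytes, on scaled counts, gave a log2 difference of only 0.0085. On 22 September it was 23.4 ± 17.2 CPM in deficient oocytes, against 37.1 ± 15.03 CPM in normal oocytes. Among the catalytic and carrier genes of the fixed set, the state differences in single-oocyte sums were -0.77 (SE 0.75) for NDUFS1, -0.09 (SE 0.42) for CYCS, -0.08 (SE 0.25) for ATP5A1 and -1.16 (SE 0.87) for ATP5B.

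Whether the state difference itself differed between pools and single-oocyte sums was tested as an interaction term over 62 members. edgeR called 0 members and 0% of 17643 genes, and 3 members had an unadjusted p under 0.05 against 5.32% of all genes. DESeq2 called 0 members, with 6 of 65 at an unadjusted p under 0.05 against 4.18% of all genes, and limma-voom called 0, with 2 of 62 against 2.75%. The 3 members were NDUFS6, NDUFB6 and ATP5J2, subunit f of the membrane part of ATP synthase. The log2 difference of NDUFS6 was smaller in pools by 5.19 (SE 1.63, interaction -5.19), and that of NDUFB6 larger in pools by 2.81 (SE 1.03). NDUFS6 did not pass the filter in the fit of pools alone, with 34 counts in all pools together. NDUFB6 and ATP5J2 did not pass it in the fit of sums alone. Each value thus leans on thin counts in 1 library type, and that of NDUFS6 ran from -7.07 to -4.11 over the alternatives. The adjusted p was 0.886 for all 3. ATP5J2 had 0 counts in all 14 deficient single oocytes, which allows up to 0.155 CPM over that group, and 15 counts in normal single oocytes, spread over 3 of 15 libraries, so its fitted value depends on the prior count and is not given as a fold. In pools ATP5J2 stood at 1.35, 2.07, 0.838, 0.820 and 0.572 CPM in the deficient group and 0.589 to 2.02 CPM (median 0.778) in the normal one. NDUFB6 in single-oocyte sums stood at 0, 0, 1.36 and 1.35 CPM in the deficient group and 1.70, 3.26 and 1.98 CPM in the normal one, the reverse order of the pools. These ranges did not overlap, as for ATP5G1 but in the opposite direction. How many of all genes separate between the sums was not counted, so nothing is drawn from it. Of the 26 counts of NDUFB6 in normal sum 3, 24 came from 1 oocyte (S29). The next members by p were NDUFB3 (3.68, SE 1.89), NDUFB1 (1.81, SE 0.96) and COX6A1 (-1.06, SE 0.59). Of these, NDUFB3 passed the filter in neither separate fit, and NDUFB1 did not pass it in that of sums.

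**Figure D3:**
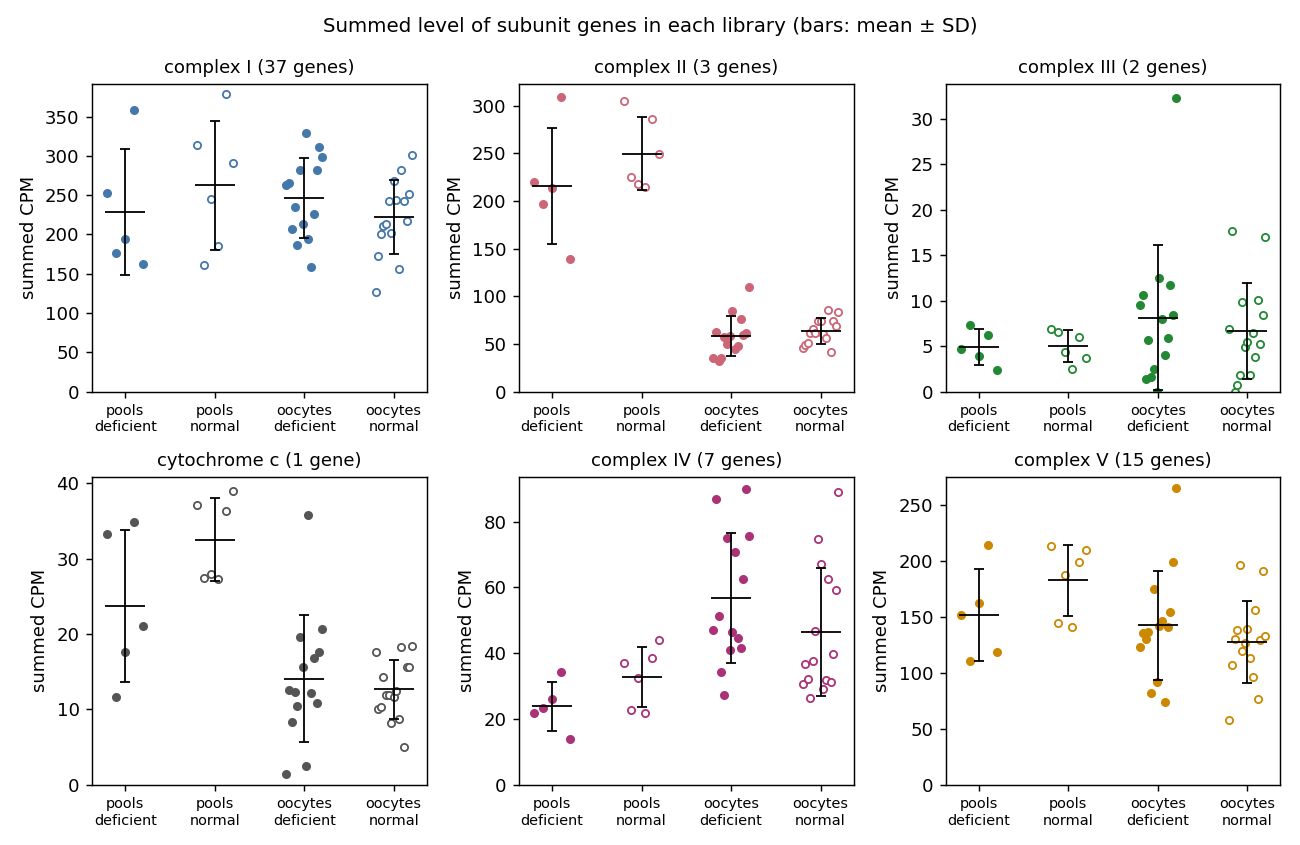
Summed CPM (y axis, starting at 0) of the members of each complex in every library, by group, with the mean and SD as bars. Filled points are deficient and open points normal libraries. Complex II spans 139 to 309 CPM in pools and 31.9 to 110 CPM in single oocytes, while within each library type the states overlap in all 6 panels. The totals behind these CPM include LOC102158401, which took 46.7% to 76.0% of the counts of a single oocyte.

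The 2 library types differed far more than the 2 states. Of 62 members tested, 13 were higher and 25 lower in pools than in single-oocyte sums with the state as a covariate, against 31.9% and 35.3% of all 17643 genes tested. Extraction, amplification chemistry, pooling and count table are the same split here and cannot be told apart, so these values describe the libraries and not 2 kinds of oocyte. The median of all genes was -0.17 and that of the members -0.59 on the log2 scale. Scaling moved these: the median of all genes was -0.65 with the size factors of DESeq2 inside edgeR and -1.69 in DESeq2 itself, where 8 members were higher and 30 and 33 lower. Over all genes DESeq2 called 4657 higher and 8592 lower, against 5624 and 6222 in edgeR. All 25 members called lower were called lower under all 5 scalings and tools, and 8 of the 13 called higher were called higher under all of them (ATP5F1, NDUFA12, NDUFA5, NDUFB1, NDUFS4, NDUFS5, NDUFV2 and SDHB).

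**Figure D4:**
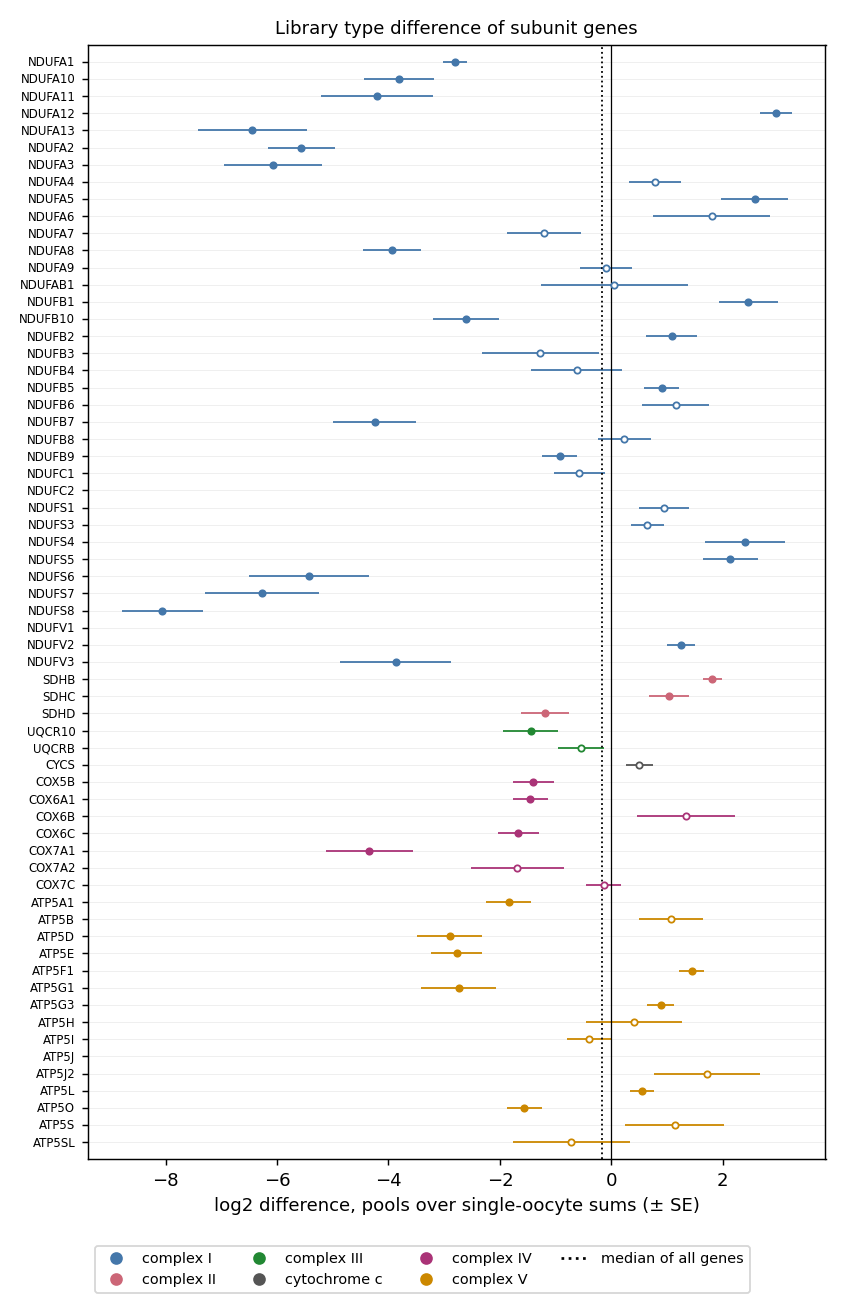
Log2 difference of pools over single-oocyte sums (x axis, with bars of 1 standard error) for the members tested (1 of the 62 is not shown), coloured by complex, with filled points for an adjusted p under 0.05. The dotted line marks the median of all 17643 genes at -0.17, and complex I spans -8.06 to 2.96.

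Complex I was split most widely, with 8 members higher, 14 lower and 13 not called of 35 tested. The 6 largest positive differences included 5 of its members. NDUFA12, an accessory subunit of the peripheral arm, stood at 19.005 to 61.7 CPM (median 44.7) in 11 pools, against 0 to 24.1 CPM (median 3.67) in 29 single oocytes. The log2 difference was 2.96 (SE 0.28, adjusted p = 1.43e-09), or 3.13 above the median of all genes. NDUFA5, also of the peripheral arm, stood at 2.91 to 5.63 CPM (median 5.01) in pools and had a count in 7 of 29 single oocytes, a log2 difference of 2.58 (SE 0.60). NDUFS4, an assembly-critical subunit mutated in Leigh syndrome in humans, stood at 0.898 to 13.2 CPM (median 5.41) in pools and had a count in 7 of 29 single oocytes, a difference of 2.40 (SE 0.72) that did not pass among normal libraries alone (adjusted p = 0.0904). NDUFB1 gave 2.46 (SE 0.53) and NDUFS5, an intermembrane-space subunit, 2.14 (SE 0.49). NDUFV2, which holds an iron-sulphur cluster beside NDUFV1, gave 1.25 (SE 0.25).

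The 6 largest negative differences were all of complex I, and several of these genes had almost no counts in the pools despite their depth. NDUFS8 and NDUFS7, which carry the iron-sulphur clusters that hand electrons to ubiquinone, had 3 counts and 1 count in all 11 pools together, against 165 and 18 counts in 29 single oocytes. The ratio of pools over single oocytes was 0.00290 (exact interval 0.000592 to 0.00863) for NDUFS8 and 0.00886 (0.000213 to 0.0561) for NDUFS7, intervals that cover counting error only. NDUFA13, a membrane-arm subunit also known as a regulator of cell death, had 4 counts in pools and 68 in single oocytes, a ratio of 0.00939 (0.00249 to 0.0252). NDUFA2, a peripheral-arm subunit, stood at 0 to 2.44 CPM (median 0.277) in pools and 0 to 78.9 CPM (median 17.4) in single oocytes, with a count in 28 of 29, a log2 difference of -5.56 (SE 0.60, adjusted p = 9.17e-09). NDUFA3, a small membrane-arm subunit, had 0 to 0.339 CPM in pools and a median of 4.07 CPM in single oocytes (-6.07, SE 0.88), and NDUFS6 gave -5.43 (SE 1.08). NDUFA1 and NDUFA8, seen in every library, were also lower in pools. NDUFA1 stood at 4.84 to 12.3 CPM in pools and 11.4 to 58.5 CPM in single oocytes (-2.80, SE 0.21), and NDUFA8 at 0.0691 to 8.91 CPM in pools and 4.97 to 59.4 CPM in single oocytes (-3.93, SE 0.52).

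Among the subunits of the electron-carrying core of complex I, NDUFV1 was thinly counted in both types of library, with 14 counts in 3 pools and 16 counts in 8 single oocytes. NDUFS1 and NDUFS3, from the same arm, were counted in all 11 pools and in 24 and 29 of 29 single oocytes. NDUFC2, a membrane-arm subunit, had 21 counts in pools and 0 in all single oocytes, which allows up to 0.0728 CPM over them, and ATP5J (coupling factor 6 of the stalk) and NDUFA6 had 1 and 3 counts in all single oocytes together.

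Complex II went in both directions. SDHB rose in pools by 1.81 (SE 0.17, adjusted p = 1.16e-09). It stood at 127 to 276 CPM (median 202) in pools and 13.2 to 75.0 CPM (median 46.3) in single oocytes. These ranges did not overlap, but only against totals that include LOC102158401 and RN18S. Normal oocyte S12 had 98 SDHB counts among 1313085, of which those rows took 65.5% and 3.64%. Outside them its SDHB level falls within the range of the pools. SDHC was called higher by 1.03 (SE 0.36), a call lost under another scaling, and SDHD was lower by 1.18 (SE 0.43, log2 difference -1.18). In complex III, UQCR10 was lower in pools (-1.45, SE 0.50) and UQCRB gave -0.55 (SE 0.42). CYCS gave 0.50 (SE 0.25) and was not called.

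In complex IV, 0 members were higher and 4 of 7 lower in pools: COX7A1 (-4.35, SE 0.78), COX6C (-1.67, SE 0.36), COX6A1 (-1.45, SE 0.31) and COX5B (-1.40, SE 0.37). COX7A1, the heart and muscle isoform, stood at 0 to 1.34 CPM (median 0.184) in pools and 0 to 12.4 CPM (median 3.54) in single oocytes, where it had a count in 24 of 29. COX7A2, which takes its place in most tissues, stood at 0 to 1.71 CPM (median 0.663) in pools and 0 to 6.63 CPM (median 0.798) in single oocytes, with a difference of -1.68 (SE 0.83) that was not called.

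In complex V, 3 members were higher and 5 lower of 14 tested. ATP5F1 (1.44, SE 0.22), ATP5G3 (0.89, SE 0.24) and ATP5L (0.55, SE 0.21) were higher in pools. ATP5A1 was lower in pools (-1.84, SE 0.41), at 0.898 to 21.7 CPM against 12.4 to 75.2 CPM in single oocytes, while its partner in the catalytic head, ATP5B, gave 1.07 (SE 0.58) and was not called. The other 4 lower members were ATP5D and ATP5E, subunits of the central stalk (-2.90, SE 0.59, and -2.77, SE 0.46), ATP5G1 (-2.74, SE 0.67) and ATP5O, which joins the head to the outer stalk (-1.56, SE 0.31).

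The makeup of the respiratory transcripts differed between library types as well. Complex I took 34.3% ± 3.44 of the members' counts in pools (SD, n = 11) and 46.9% ± 4.82 in single oocytes (SD, n = 29), and complex II took 33.2% ± 3.05 and 12.3% ± 2.67. Complex II held 29.8% to 38.4% of the members' counts in a pool and 7.34% to 15.9% in a single oocyte, with no overlap. SDHB alone took 30.1% ± 3.69 of them in pools and 9.14% ± 2.49 in single oocytes, a share of counts that is not corrected for transcript length. Complex IV took 3.99% ± 0.638 in pools and 10.1% ± 2.65 in single oocytes, and complex V 23.8% ± 1.97 and 26.5% ± 4.22. Between the states the ranges of these shares overlapped within each type. In deficient and normal pools complex I held 34.9% ± 2.48 and 33.7% ± 4.23 and complex II 33.4% ± 2.69 and 33.1% ± 3.58. In deficient and normal single oocytes complex I held 47.4% ± 4.99 and 46.5% ± 4.79 and complex II 11.1% ± 3.09 and 13.4% ± 1.67 (SD, n = 5, 6, 14 and 15).

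**Figure D5:**
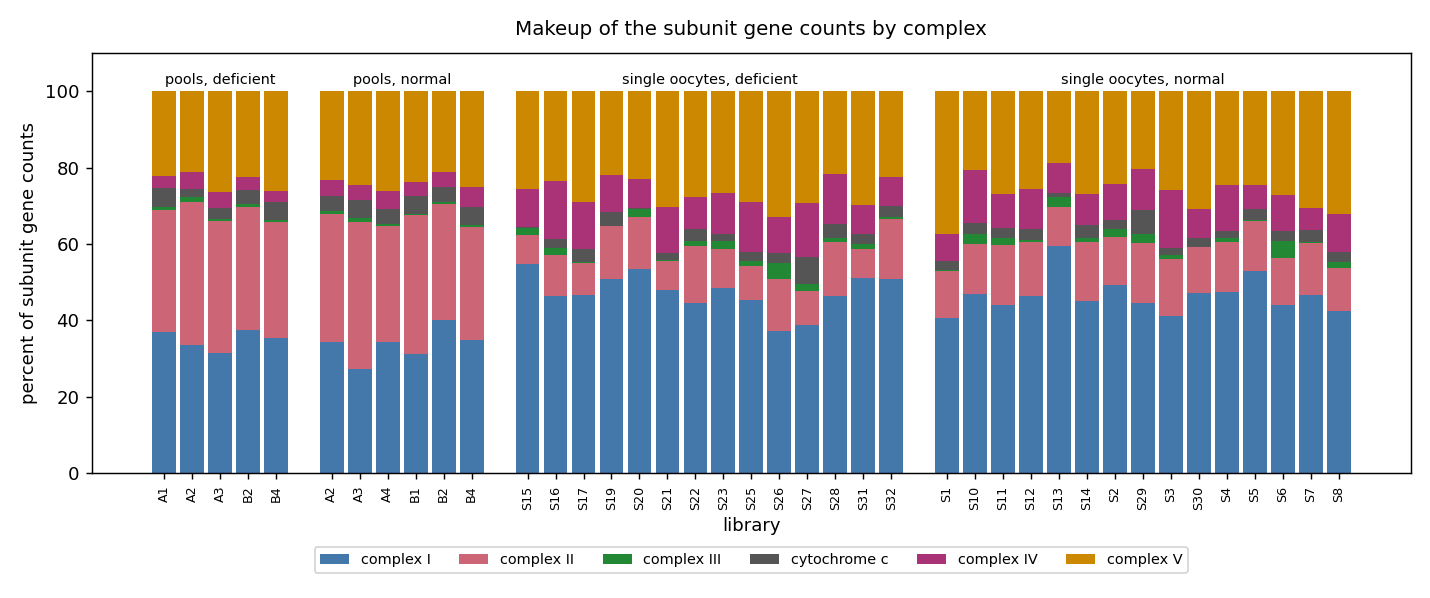
Share of the 65 members' counts held by each complex (y axis, percent) in every library, grouped by library type and state. Complex II holds at least 29.8% in each of the 11 pools and at most 15.9% in each of the 29 single oocytes, and within a type the ranges of deficient and normal libraries overlap.

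The total share of the members depended on what it was set against. Members made up 0.0457% to 0.0958% of all counts in pools and 0.0285% to 0.0801% in single oocytes. Outside LOC102158401 and RN18S, they made up 0.0458% to 0.0962% in pools and 0.110% to 0.197% in single oocytes, so the order of the library types turned round. The order of the state means in single oocytes turned as well, with differences smaller than the SD of either state. Of all counts, members made up 0.0526% ± 0.0127 in deficient oocytes (SD, n = 14), against 0.0478% ± 0.00984 in normal oocytes (SD, n = 15), while LOC102158401 took 58.5% ± 6.71 in deficient oocytes, against 64.2% ± 5.20 in normal oocytes, and RN18S 3.89% ± 0.753 in deficient oocytes, against 2.92% ± 0.645 in normal oocytes. The part of these 2 genes in the difference was not tested. Outside them the share was 0.139% ± 0.0154 in deficient and 0.146% ± 0.0237 in normal oocytes, and within the pools 0.0651% ± 0.0195 in deficient and 0.0771% ± 0.0161 in normal pools (SD, n = 5 and 6).

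Of the 65 members, 51 to 62 had a count in a given pool and 30 to 59 in a given single oocyte. The median was 56 members in deficient pools against 60 in normal pools, and 48 in deficient single oocytes against 45 in normal ones, with overlapping ranges. Counts in every pool were seen for 41 members and in every single oocyte for 12 (ATP5A1, ATP5F1, ATP5G3, ATP5O, COX6A1, COX6C, CYCS, NDUFA1, NDUFA8, NDUFB9, NDUFS3 and SDHB). SDHB varied least among the pools in relative terms, with a coefficient of variation of 19.7% where counting alone gives 1.46%. Among single oocytes it was 32.9% against a counting share of 13.04%. NDUFA8 showed how far the pools could spread: its coefficient of variation was 91.1% over the pools, where counting alone gives 12.1%, and 42.1% over single oocytes, where counting gives 16.3%.

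Of the genes that build, feed or regulate the chain, those tested were not called for the state. Of 73 genes found from 8 lists (assembly factors of complexes I to V, ubiquinone synthesis, other electron entry to ubiquinone, and transcriptional regulators), 53 were tested in pools and 0 were called, with 26 higher and 27 lower in deficient pools. Of 13 complex I assembly genes, NDUFAF5, a methyltransferase-family assembly factor, had the smallest p, at 2.69 ± 2.08 CPM in deficient pools, against 0.592 ± 0.779 CPM in normal pools, a log2 difference of 2.45 (SE 1.03, adjusted p = 0.903), followed by AIFM1 (-0.87, SE 0.40). Among 9 ubiquinone synthesis genes, 1 lay higher and 8 lower, with COQ9, a lipid-binding protein of that pathway, at 2.75 ± 2.51 CPM in deficient pools, against 7.59 ± 3.73 CPM in normal pools (-1.46, SE 0.63, adjusted p = 0.903) and the kinase-like ADCK3 at -0.86 (SE 0.54). The complex II factors SDHAF3 and SDHAF2 and the complex III factors TTC19 and LYRM7 had the smallest p of their lists, with SDHAF3 at 0.95 (SE 0.62) and TTC19 at 1.07 (SE 0.53). In the complex IV list HIGD2A gave -0.44 (SE 0.25) and LRPPRC, which stabilises mitochondrial mRNA, 0.44 (SE 0.28). The inhibitor of ATP synthase ATPIF1 gave -0.62 (SE 0.43), the electron-transfer flavoprotein gene ETFA 0.33 (SE 0.21), the mitochondrial transcription factor TFB1M 1.20 (SE 0.61) and the coactivator PPARGC1A -2.19 (SE 1.14). These values are means and SD over 5 deficient and 6 normal pools.

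In single-oocyte sums 51 of these genes were tested and 0 were called, with 18 higher and 33 lower in deficient sums. Of 9 ubiquinone synthesis genes 1 lay higher and 8 lower here too, led by PDSS1, which makes the isoprenoid tail (-0.92, SE 0.52). LRPPRC gave 0.78 (SE 0.45), TACO1, a translational activator of a complex IV subunit, 1.24 (SE 0.74), ATPIF1 -0.83 (SE 0.49), TMEM70, an ATP synthase assembly factor, -0.40 (SE 0.34), ETFDH, which passes electrons to ubiquinone, -0.94 (SE 0.56), and the nuclear receptor ESRRA -0.96 (SE 0.54). All had an adjusted p of 1.00. Between the library types, 20 of 67 list genes were higher and 24 lower in pools, a split set beside the 31.9% and 35.3% of all genes above.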

How the data were processed

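The deposited tables hold whole-number counts per gene, 1 table for the pools and 1 for the single oocytes, made by the authors. FastQC, Trim Galore, TopHat2 2.0.14, edgeR and the pig build Sscrofa10.2 are named per the submitters' processing notes, while the sources used here give neither the counting program nor its strand setting, so reads of a gene and of an antisense or near-identical copy may not be told apart. A row without a gene name, left out of both tables, took 1.05% to 4.75% of counts in pools and 0.648% to 8.15% in single oocytes. CPM values are counts scaled to the remaining total of each library, and intervals and floors cover counting error only, since no molecular identifiers were counted.

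The state came from the mtDNA state field of the labels. Single oocytes were summed by state and first title number. Counts were filtered by group with filterByExpr, scaled with TMM and tested with the quasi-likelihood F test of edgeR 4.0.16 in R 4.3.3, with Benjamini-Hochberg adjustment over all genes tested and a threshold of 0.05. Differences are log2, with a standard error taken as the size of the difference over the square root of F. The 95% interval spans 1.96 standard errors to either side. It makes no allowance for the small number of libraries and is thus too narrow. Alternatives were DESeq2 1.42.0, limma-voom (limma 3.58.1), other scalings and filters, covariates, left-out libraries and a replicate block. The fits were tested on simulated data. Same-numbered sums deviated together (correlations of 0.143, 0.220 and 0.165), so the numbers were taken to pair the sums in the fit with a block. The titles do not say what the numbers mean, and the numbers follow the dates in part. The main fit of sums left the pairing out, so its differences, standard errors, intervals and p-values are unpaired. No 2 libraries of a group agreed within sampling noise. Genes named are the 6 members of smallest p in each state comparison and in the interaction, the 6 largest called differences in each direction between library types, a fixed set of catalytic and carrier subunits, and the 2 genes of smallest p in each pathway list. Others were named after their values were seen. The members and lists were chosen with earlier results of these data known. No genome of the files' build was used here, so no coordinates are given. The values of 1 member are not reported here, although it counts in the sums and counts over members.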

Additional observations from a re-analysis of the deposited data

Results flagged for a closer look

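In 13 of 88 groups of 4 to 6 libraries tested, 1 value of a member stood apart from the others of its group by Dixon's test at 95%, a test that chance alone passes in some groups. In 5 of them a deficient pool stood above the others. Pool A2 had 0.0691 CPM of NDUFA13, 0.276 CPM of NDUFA3 and 2.42 CPM of NDUFB3, a membrane-arm subunit of complex I. Pool A3 had 0.0882 CPM of NDUFS6 and pool A1 had 0.0466 CPM of NDUFS8. In 5 a normal pool stood above the others: B2 with 3.27 CPM of ATP5G1 and 0.0727 CPM of NDUFS8, B4 with 2.02 CPM of ATP5J2 and 13.2 CPM of NDUFS4, and A2 with 0.0347 CPM of NDUFS7. The values below 0.1 CPM rest on 1 or 2 counts while the other pools of the group were at 0. In 3 a deficient sum of single oocytes stood apart: sum 1 with 5.22 CPM of NDUFB8 and 1.74 CPM of NDUFS4, and sum 2 with 1.61 CPM of NDUFS7.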

How the results depend on the processing

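No member was called for the state in pools, in single-oocyte sums or in the interaction under any of the 21, 20 and 24 alternatives run. The number of members at an unadjusted p under 0.05 ran from 0 to 3 in pools, 0 to 3 in sums and 3 to 5 in the interaction when 1 library or sum was left out. Over all genes, DESeq2 called 59 for the state in pools and 2 in sums, where no filter called 4, the replicate block 2, each oocyte as a sample 1 and the oocytes of 17 September 2. For the interaction, no filter called 6 genes and each oocyte as a sample 3. Fits with each oocyte as a sample treat the oocytes of a state as replicates, although they may share an animal or culture.

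Between library types, the 13 members higher in pools became 8 in DESeq2, 8 with RLE size factors and 7 with each oocyte as a sample, and 12 to 15 when 1 library or sum was left out. The members lower in pools numbered 24 to 26 when 1 was left out. The count of members whose ranges did not overlap between states ran from 0 to 1. NDUFA8 in single oocytes turned to 0.0085 among oocytes of 17 September. The cause of these changes was not tested.

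In pools, title labels shared by 4 pairs (A2, A3, B2 and B4) gave correlations of -0.105, 0.127, 0.476 and 0.0781. Of the 4 deficient pools, 3 matched their own label best and A2 did not. The pools were not taken as paired, although these values do not settle whether they were. The replicate block over those 8 pools called 0 members, with 2 at an unadjusted p under 0.05 and a median of -0.27, and the same 8 pools without it 0 and 1. In sums the replicate block called 0 members and 0 at an unadjusted p under 0.05, and the same 6 sums without it, a comparison chosen after seeing the data like that of the 8 pools, 0 and 1. Over all single oocytes a count of 0 allows up to 0.0728 CPM, and over all pools 0.0116 CPM.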

Other observations

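Subunits whose rows carry only a locus name were matched through the RefSeq gene names of another pig build, Sscrofa11.1, and were left out of the members. SDHA, the flavin subunit of complex II, stood at 0.0881 ± 0.169 CPM in pools (SD, n = 11), against 6.35 ± 4.11 CPM in single oocytes (SD, n = 29). ATP5C1, the gamma subunit of ATP synthase, stood at 2.83 ± 1.33 CPM in pools, against 0.143 ± 0.383 CPM in single oocytes. ATP5G2, another gene for the c subunit, averaged 0.139 ± 0.193 CPM in deficient pools (SD, n = 5), against 1.01 ± 0.682 CPM in normal pools (SD, n = 6). Its log2 difference was -2.67 (SE 1.02, adjusted p = 0.903 in edgeR).

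Several pathway genes differed widely between library types and were named after their values were seen. NDUFAF7, a complex I assembly factor, stood at 6.77 ± 1.82 CPM in pools, against 142 ± 32.9 CPM in single oocytes. The nuclear receptor genes ESRRG and ESRRA went opposite ways: ESRRG stood at 229 ± 47.3 CPM in pools, against 28.3 ± 13.02 CPM in single oocytes, and ESRRA at 0.0209 ± 0.0361 CPM in pools, against 5.82 ± 4.54 CPM in single oocytes. LRPPRC stood at 182 ± 58.6 CPM in pools, against 14.6 ± 11.7 CPM in single oocytes.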
